A study of Homo sapiens with 24 samples.

Results

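Isolated Rbap46 sites are places where Rbap46 was enriched over input chromatin and where no other listed site lay within 250 kb. In the authors' deposited table of Rbap46 against input, a site was taken as isolated when its Rbap46 level exceeded its input level and the gap between its edge and the edge of the nearest other site on the same chromosome was more than 250 kb. The rule was met by 475 sites, or 1.56% of the 30425 sites above input, in a table of 30475 sites on 23 chromosomes. The other 29950 sites above input served for comparison. The rule used position and the direction of enrichment, and did not itself use how strong the enrichment was or where H3K9ac changed. All listed sites had passed the authors' FDR limit of 0.05, however, so strength bears on which sites and neighbours count. A further 6 sites had a gap over 250 kb but were not above input and were left out, which is 12% of the 50 such sites.

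The data were chromatin immunoprecipitation followed by sequencing (ChIP-seq) in cells labelled hTert-HME1, human mammary epithelial cells made immortal with telomerase and grown in a medium for such cells. Rbap46 and input were measured in untreated cells, with 2 libraries each. H3K9ac was measured in cells labelled shControl (3 libraries) and in cells with a short hairpin RNA against HAT1, labelled shHAT1 (3 libraries), all labelled as the same line. The HAT1, H4K12ac and H4K5ac libraries of the series, 14 of 24, were not analysed here. Every level below is the authors' mean over the libraries of a group, on a log2 scale of normalized read concentration. There is therefore no spread between replicates, depth per library is unknown, and differences between sets of sites are given as descriptions without a test, since sites are not replicates.

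Rbap46, the product of RBBP7, is a WD40-repeat protein that binds histone H4 and acts as a histone chaperone. It is a partner of HAT1, the acetyltransferase of newly made histone H4, and also a subunit of several chromatin-modifying complexes, among them NuRD, Sin3 and PRC2. H3K9ac, acetylation of lysine 9 of histone H3, marks active promoters and enhancers. Promoters are crowded in gene-dense chromosome regions and sparse in gene deserts, and gene-rich and gene-poor chromosomes differ accordingly.

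Input level was uneven along the genome in these libraries. In 6 of the 1105 windows of 1 Mb that held at least 10 sites above input, the median input level was raised by 1 or more over that of the chromosome. Of these, 5 lay next to each other on chromosome 22 from 19 to 24 Mb, with differences between 1.68 and 1.96 on the log2 scale, and the other was on chromosome 13. On chromosome 9, the windows from 133 to 134 and from 134 to 135 Mb were raised by 0.84 and 0.89. Whether the Rbap46 and input libraries come from the labelled line, and from the same cells as the H3K9ac libraries, was not tested, and every Rbap46 level and every overlap of the 2 tables below takes the labels as given. The 6 windows held 193 sites above input, and 0 of them were isolated. On chromosome 6, neither table held a site between 28459723 and 33456196, a stretch of 5.0 Mb, and neither site at its edges was isolated.

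The isolated sites stood alone in a large part of the span covered by the table. The intervals from the site before to the site after each isolated site covered 852.0 Mb, or 29.0% of the 2938 Mb between the first and last sites of all chromosomes. Centromeres and stretches of unknown sequence were not removed from either length. The median gap to the nearest site was 389 kb on the closer side and 970.0 kb on the other. A gap over 500 kb was found at 154 isolated sites (32.4%), over 1 Mb at 40 sites (8.42%) and over 2 Mb at 11 sites (2.32%). An isolated site had a median of 7 other sites within 1 Mb, with quartiles of 3 and 13, against 40 for the other sites, with quartiles of 23 and 64. Isolated sites thus lay in regions with few sites. Part of this follows from the rule, which leaves no site within 250 kb.

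Isolated sites also followed one another. Of the 475, 200 (42.1%) had an isolated site as the next or the previous one, in 70 pairs, 14 triplets, 2 runs of 4 and 2 runs of 5, and the other 275 were single. The rule bears on this, since a site next to an isolated one already has more than 250 kb free on the shared side. No expected share was computed. One run of 5 lay on chromosome 5 from 27217554 to 29984665, over 2.77 Mb, with Rbap46 levels from 5.54 to 7.07 and a median Rbap46 level minus input level of 1.02. The other was on chromosome 9 from 41954511 to 67793959, over 25.8 Mb, an interval that contains the centromere of that chromosome. Its Rbap46 levels ran from 4.66 to 6.60 and its median Rbap46 minus input was 1.43. No site of these 2 runs overlapped an H3K9ac site (0 in each). Both runs of 4 lay on chromosome 21, from 9647662 to 11099107 and from 20132113 to 21631293, with median differences of Rbap46 and input of 1.36 and 0.98. Sites with isolated neighbours had a median Rbap46 level of 6.13, and single isolated sites one of 6.38, while the median of Rbap46 minus input was 1.2 in both sets.

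The 5 largest gaps belonged to sites on 5 chromosomes. On chromosome 4 the last site of the table, from 190861651 to 190862151, stood 3.05 Mb from the one before it, with an Rbap46 level of 7.81 and an input level of 6.36. A chromosome X site, 89712977 to 89713477, was preceded by 3.05 Mb and followed by 10.4 Mb with no listed site, and had levels of 5.67 and 4.27. The site on chromosome 13 from 64649768 to 64650268 had 3.68 Mb before it and 2.92 Mb after it, with levels of 6.83 and 5.66. The site on chromosome 18 from 39535023 to 39535523 had levels of 7.26 and 6.06, and that on chromosome 9 from 41954511 to 41955011 levels of 6.18 and 4.61. Among these 5 sites, Rbap46 minus input ran from 1.17 to 1.57, so that the most remote sites were of ordinary strength, and 4 of the 5 lay at or above the median of all isolated sites.

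Rbap46 signal at isolated sites was lower than at the other sites, and input signal was lower still, so that the enrichment was larger. The median Rbap46 level was 6.2 at isolated sites (quartiles 5.52 and 6.93) and 6.86 at the other sites (quartiles 6.32 and 7.42). This difference of -0.66 corresponds to a concentration 0.633 times as high. The median input level was 5.08 at isolated sites (quartiles 4.27 and 5.83) and 5.85 at the others (quartiles 5.27 and 6.34), a difference of -0.77, or 0.586 times the concentration. The median of Rbap46 minus input was 1.2 at isolated sites (quartiles 1.01 and 1.45) and 1.05 at the others (quartiles 0.87 and 1.26). On the linear scale these are enrichments of 2.30-fold and 2.07-fold. The ranges overlapped widely, as the plot of both levels shows. The rule bears on these levels, since only neighbours that passed the FDR limit count, and at low signal this takes a larger ratio. How far it does was not tested.

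**Figure D1:**
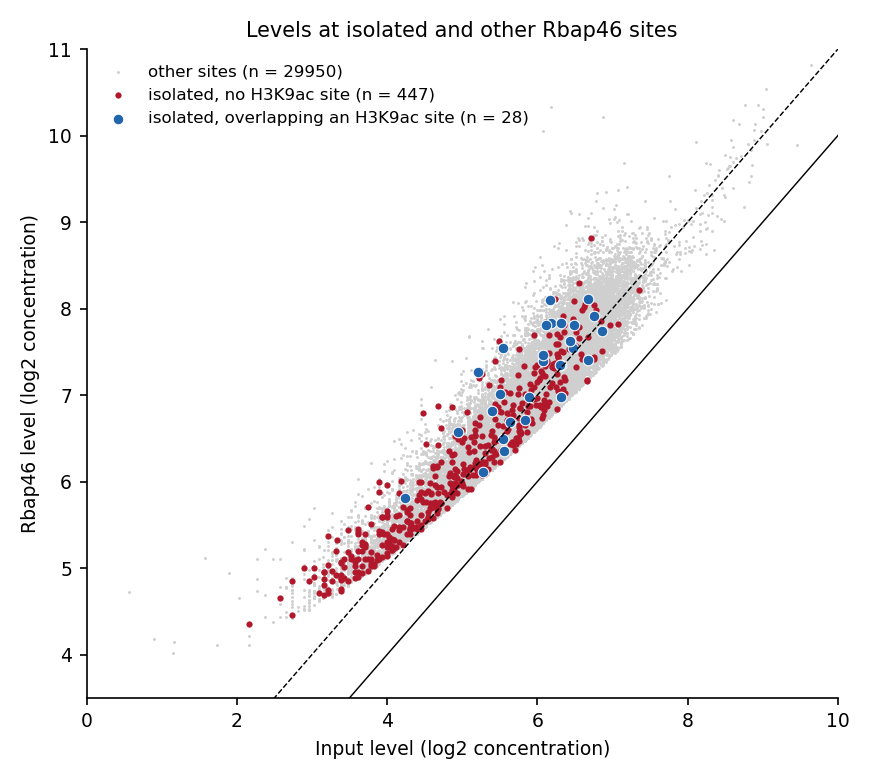
Rbap46 level against input level at each site above input (log2 concentration, authors' means), with isolated sites in colour over the other sites in grey; the solid line marks equal levels and the dashed line a 2-fold enrichment. The isolated sites extend along the whole cloud but crowd its lower left, with a median Rbap46 level of 6.2 against 6.86 and a median input level of 5.08 against 5.85.

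The same shift appeared in counts past fixed limits. Rbap46 exceeded input by 1 or more on the log2 scale, at least 2-fold, at 368 isolated sites (77.5%), against 58.0% of all sites of the table and 57.8% of the other sites above input. A difference of 1.5 or more was reached by 109 isolated sites (22.9%), against 9.93% of all sites, and a difference of 2 or more by 13 isolated sites (2.74%), against 0.981%. At the weak end, a difference under 0.7 was found at 11 isolated sites (2.32%), against 6.15% of all sites. The FDR went the other way. In the authors' deposited table, 302 isolated sites (63.6%) had an FDR under 0.01, against 73.1% of all sites, and 185 (38.9%) had an FDR under 0.001, against 51.1%. Isolated sites thus held a larger share of high ratios and a smaller share of very small FDR values than the table.

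Part of the isolated sites formed a tail of low signal. An input level under 4 was found at 85 isolated sites (17.9%) and at 837 of the other sites (2.79%). An Rbap46 level under 5.5 was found at 115 isolated sites (24.2%) and at 1328 others (4.43%). At the high end, 10 isolated sites (2.11%) had an Rbap46 level of 8 or more, against 7.39% of the others. No isolated site reached 9 (0 of 475, which allows a share of up to 0.632%), whereas 96 of the other sites (0.321%) did. That limit lies above the share among the other sites, so an absence of very strong isolated sites is not shown by these numbers.

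Low read concentration bears on the ratios, because the table lists only sites that passed the authors' FDR limit of 0.05. At low concentration only a large ratio passes. Sites above input were divided by overall concentration into 10 classes of similar size. In the lowest class the smallest Rbap46 minus input among the other sites was 0.87, and in the highest it was 0.33. Of the 475 isolated sites, 171 (36.0%) lay in that lowest class, and 16 (3.37%) in the highest. The ratio was therefore compared within these classes. In the lowest class the match was incomplete, with a median concentration of 4.83 at isolated and 5.05 at other sites. In the other 9 classes the medians differed by at most 0.13.

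Within every class of concentration, the median of Rbap46 minus input was higher at isolated than at other sites (10 of 10). In the lowest class it was 1.37 against 1.23. The smallest difference between the medians was 0.04, in the fourth class, where the values were 1.00 and 0.96. In the ninth class, with 24 isolated sites, the median was 1.33 against 1.12, and in the highest, with 16 isolated sites, 1.40 against 1.21. Averaged over the isolated sites, the difference was 0.11 within classes, and 0.10 without the lowest class, compared with 0.15 without regard to concentration. In each class the quartile ranges of isolated and other sites overlapped.

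**Figure D2:**
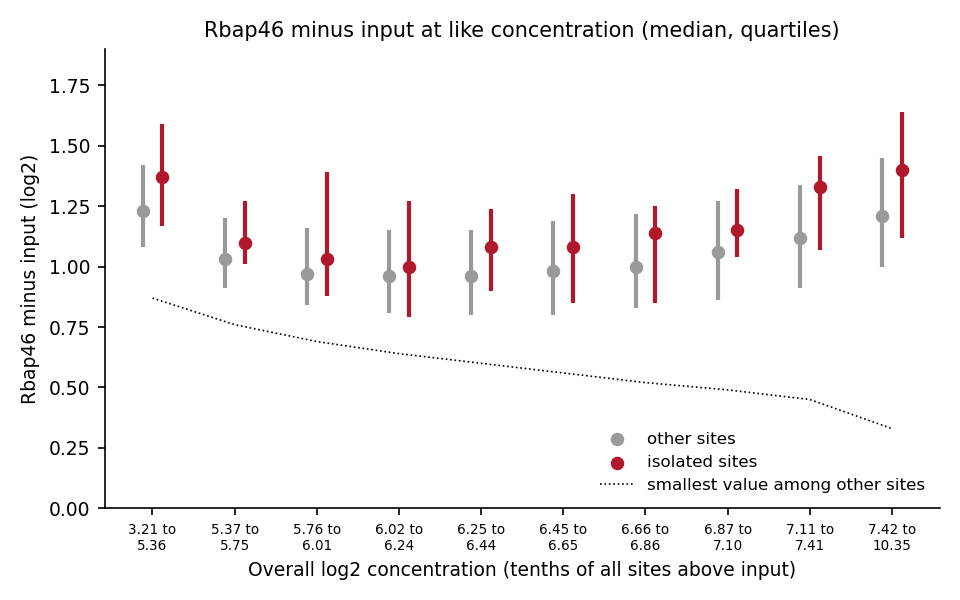
Rbap46 minus input (log2) in 10 classes of overall concentration, with medians as points and quartiles as bars for isolated and other sites; the dotted line gives the smallest value among the other sites. The isolated median lies above the other median in all 10 classes, by between 0.04 and 0.21.

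A comparison within 4 classes of input level gave medians close to each other in every class. At an input level under 4, Rbap46 minus input had a median of 1.57 at isolated and 1.5 at other sites. Between 4 and 5 the medians were 1.21 and 1.16, between 5 and 6 they were 1.06 and 1.0, and at 6 or more 1.12 and 1.02. Isolated sites were higher in each of these 4 classes, by at most 0.10. The match was incomplete, since the median input level was lower at isolated sites in each class. Between 4 and 5, for example, it was 4.52 against 4.66.

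Levels moved gradually with the gap to the nearest site, also below the limit of 250 kb. The median Rbap46 level was 6.91 at sites with a neighbour within 1 kb and the same at 1 to 10 kb. It was 6.72 at 50 to 100 kb, 6.51 at 100 to 250 kb and 6.15 at 250 to 500 kb. Beyond that it did not go down further, with 6.37 at 500 kb to 1 Mb and 6.18 over 1 Mb. The median input level was 5.86 within 1 kb and 5.93 at 1 to 10 kb. In the 3 classes of isolated sites it was 5.06, 5.17 and, over 1 Mb, 4.94, the lowest of all classes. The median of Rbap46 minus input was 1.06 within 1 kb and lowest, at 1.02, at 1 to 10 kb. It was 1.16 at 100 to 250 kb and 1.17, 1.24 and 1.30 in the 3 classes of isolated sites, which held 321, 114 and 40 sites.

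**Figure D3:**
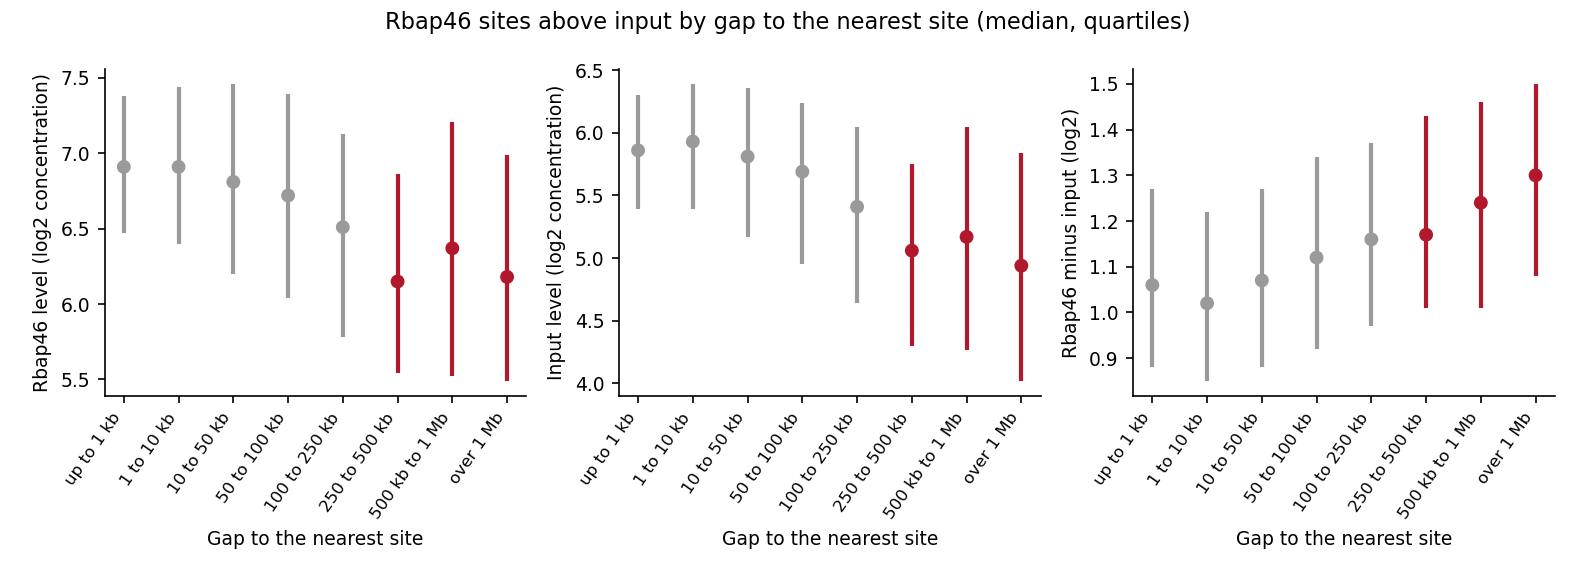
Rbap46 level, input level and their difference (log2) for sites above input in 8 classes of gap to the nearest site, with medians as points and quartiles as bars; isolated classes are coloured. Levels go down from 6.91 to 6.15 for Rbap46 up to 500 kb, while the median difference goes from 1.06 within 1 kb and 1.02 at 1 to 10 kb up to 1.30 over 1 Mb.

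Sites at the edge of the rule had levels within the range of the rest. Just inside the limit, chromosome 4 had a site, 164415469 to 164415969, with a gap of 250.3 kb, an Rbap46 level of 7.81 and an input level of 6.12. One on chromosome 2 from 208030990 to 208031490 (gap 250.5 kb) had levels of 6.16 and 4.61, and one on chromosome 8 from 134058046 to 134058546 (gap 250.9 kb) levels of 6.08 and 5.18. Just outside it, chromosome 15 had a site, 56285597 to 56286097, with a gap of 249.7 kb and levels of 6.99 and 5.82. One on chromosome 3 from 17484556 to 17485056 (gap 249.7 kb) had levels of 6.24 and 5.44, and one on chromosome X from 45024283 to 45024783 (gap 249.3 kb) levels of 5.44 and 4.16.

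The sites that flank isolated sites, without being isolated themselves, had intermediate levels. These 711 sites had a median Rbap46 level of 6.5, a median input level of 5.44 and a median difference of 1.12. All 3 values lay between those of isolated and of other sites. The 60 isolated sites with more than 3 Mb without a listed site on one side had a median input level of 4.90 and a median difference of 1.40. The values were 5.14 and 1.17 at the 415 isolated sites without such a side. How much of these stretches is centromere or unknown sequence was not determined. Of the isolated sites, 7 (1.47%) were wider than the smallest width of 501 bp, against 1.61% of the others.

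The 5 isolated sites with the highest Rbap46 minus input had very unequal signal. The first, on chromosome 15 from 32907411 to 32907911, had an Rbap46 level of 6.79 and an input level of 4.48, a difference of 2.31. The authors' deposited table gave it an FDR of 5.99e-11. The second, on chromosome 21 from 25644762 to 25645262, had levels of 6.88 and 4.68, with 8.85e-12 as its FDR by the authors' deposited table. These 2 sites had an Rbap46 level above the median of the isolated sites and an input level below it. The third, on chromosome 9 from 82196453 to 82196953, had the lowest input level of all isolated sites, 2.16, with an Rbap46 level of 4.35. By the authors' deposited table its FDR was only 0.0152. The other 2 lay on chromosome 10. That from 90640062 to 90640562 had levels of 5.37 and 3.21, and that from 114206711 to 114207211 had levels of 7.63 and 5.49 and, by the authors' deposited table, an FDR of 1.2e-16.

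The highest Rbap46 level of an isolated site, 8.82, was on chromosome 1 from 163291601 to 163292101. Its input level was 6.71 and its difference 2.11. The FDR that the authors' deposited table gave it, 2.4e-35, was the smallest of any isolated site. It stood 531 kb from the site before it and 1.39 Mb from the site after it. Next came 2 sites on chromosome 7. That from 87505516 to 87506016 had levels of 8.30 and 6.56, and that from 76751485 to 76751985 levels of 8.22 and 7.36, the highest input level among isolated sites and a difference of only 0.86. Chromosome 2 had a site, 127065729 to 127066229, with levels of 8.11 and 6.24, and one on chromosome 10 from 53459289 to 53459789 levels of 8.11 and 6.67. A high Rbap46 level at an isolated site thus occurred both with strong and with modest enrichment.

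The weakest enrichment was found where both levels were fairly high. The 3 lowest differences were 0.50 on chromosome 10 from 120514282 to 120514782, 0.52 on chromosome 7 from 26904095 to 26904595 and 0.58 on chromosome 14 from 19614355 to 19614855. Their Rbap46 levels were 7.16, 7.18 and 6.84. Their FDR values in the authors' deposited table, 0.0487, 0.0393 and 0.042, lay close to the limit of the table. That limit bears on this pattern, since differences this small did not pass it at low concentration.

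Isolated sites were unevenly spread over the chromosomes. All 23 chromosomes had at least 1. The largest shares of a chromosome's sites were 4.60% on chromosome 13 (20 of 435), 4.42% on chromosome 18 (19 of 430) and 4.14% on chromosome X (31 of 748). These 3 chromosomes held 14.7% of the isolated sites and 5.30% of all sites above input. The smallest shares were 0.133% on chromosome 22 (1 of 754), 0.282% on chromosome 17 (5 of 1771) and 0.296% on chromosome 19 (6 of 2029). By number, chromosome 5 had the most with 36, followed by chromosome 8 with 34 and chromosomes 1 and 2 with 32 each.

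The share followed the density of sites. Chromosome 19, the most gene-rich human chromosome, had 34.5 sites above input per Mb, whereas chromosomes 13, X and 18 had 4.55, 4.92 and 5.52. Over the 23 chromosomes, Spearman's rho between density and isolated share was -0.94 and Pearson's r was -0.76. This is a description of positions in 1 table, and the gap rule ties the share to density by construction. Chromosome 4 had a lower share (2.87%) than chromosomes 13, 18 and X at a similar density of 5.30 sites per Mb. Per 10 Mb, isolated sites numbered between 0.293 on chromosome 22 and 2.44 on chromosome 18, with 1.02 on chromosome 19.

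**Figure D4:**
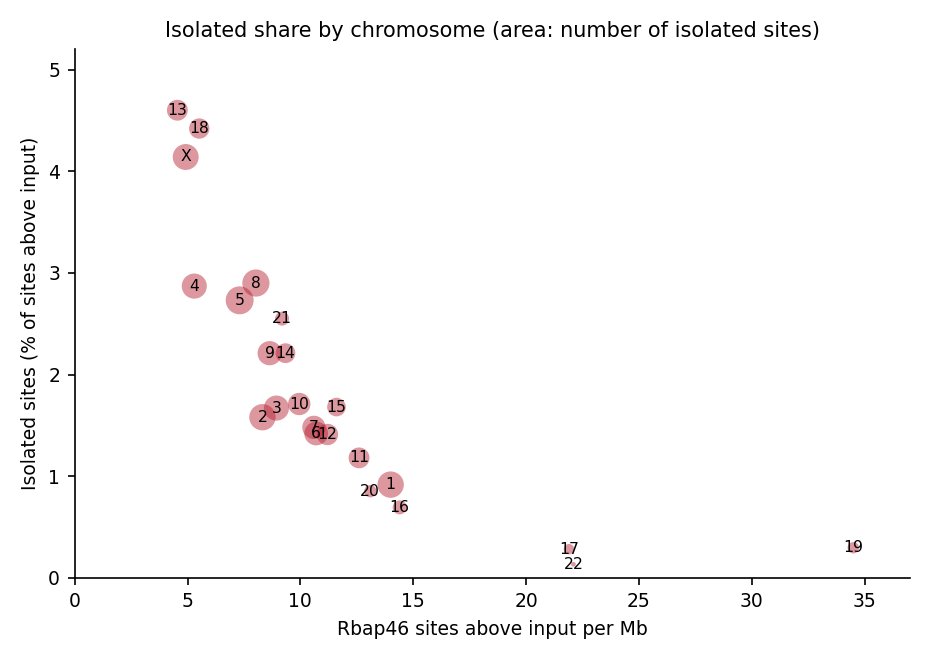
Share of sites above input that are isolated (percent) against sites above input per Mb, with 1 circle per chromosome and the circle's area proportional to the number of isolated sites. Chromosomes 13, 18 and X lie at the top left with 4.14% to 4.60%, and chromosomes 17, 19 and 22 at the bottom right with under 0.3%.

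The differences in level were also found within chromosomes. On the 22 chromosomes with at least 5 isolated sites, the median input level was lower at isolated than at other sites on 22, the median Rbap46 level on 21 and the median of Rbap46 minus input was higher on 22. Measured against the median of its own chromosome, an isolated site differed from the others by -0.58 in Rbap46 level, -0.68 in input level and 0.14 in their difference. The contrast in level was largest on chromosome 19, where 6 isolated sites had a median Rbap46 level of 5.43 against 7.01 and an input level of 4.16 against 5.98. The order was reversed on chromosome 7, where 25 isolated sites had a median Rbap46 level of 7.09 against 6.99. On chromosome X the medians were 6.23 and 6.4 for Rbap46 and 5.16 and 5.30 for input. The difference of Rbap46 and input stood out most on chromosome 9, at 1.43 over 27 isolated sites against 1.06.

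The second table listed 2191 sites where H3K9ac differed between shControl and shHAT1 cells at the authors' FDR under 0.1. Of the 475 isolated Rbap46 sites, 28 overlapped such a site by at least 1 bp. This share of 5.89% (95% exact binomial interval 3.95% to 8.41%, counting error only) is near the 5.42% of all sites above input and the 5.41% of the other sites. Isolated sites therefore overlapped changed H3K9ac about as often as sites in company.

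At like Rbap46 level the shares were less alike. Below an Rbap46 level of 6, 1 of 196 isolated sites (0.51%) and 0.505% of the others overlapped. Between 6.5 and 7 it was 6 of 81 isolated sites (7.41%, 95% exact binomial interval 2.77% to 15.4%) and 1.96% of the others. Between 7 and 7.5 it was 7 of 63 (11.1%, interval 4.59% to 21.6%) and 6.03%. At 7.5 or more it was 11 of 48 (22.9%, interval 12% to 37.3%) and 15.5%. Sorted by input level instead, 16 of 100 isolated sites at 6 or more (16%) and 10.2% of the others overlapped. By Rbap46 minus input the order was mixed. Under 1, 6.54% of isolated and 3.69% of other sites overlapped, and at 1.5 or more 8.26% and 11.6%. Numbers of isolated sites in these classes are small, and the difference was not tested.

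Away from the site itself, changed H3K9ac was rarer around isolated sites. Within 100 kb, 37 isolated sites (7.79%) and 30.8% of the other sites had a changed H3K9ac site, and the median distance to the nearest one was 1210 kb against 257 kb. Of the 37 isolated sites with changed H3K9ac within 100 kb, 28 (75.7%) overlapped it, while of the 9218 other sites 17.6% did. The rule bears on this, since 1668 of the 2191 H3K9ac sites overlapped an Rbap46 site above input and no second Rbap46 site could lie within 250 kb of an isolated one.

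**Figure D5:**
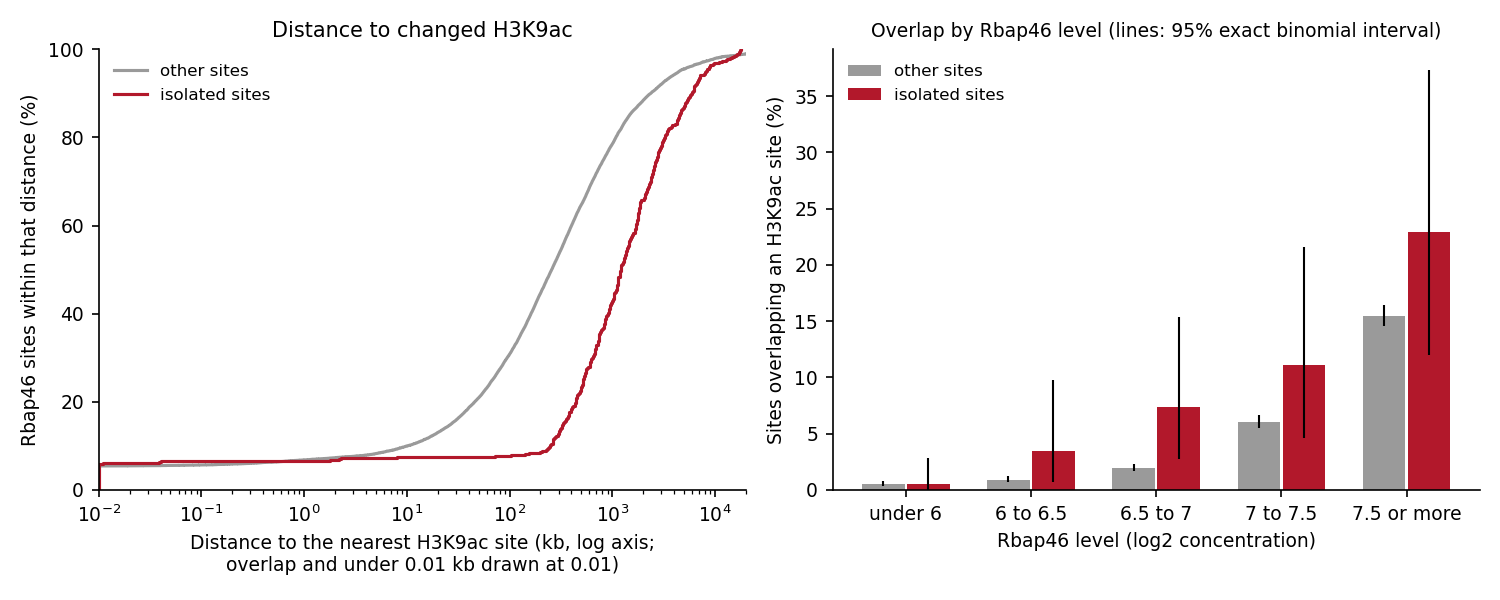
Left, percent of isolated and of other sites with a changed H3K9ac site within a given distance (kb, log axis); right, percent overlapping a changed H3K9ac site by Rbap46 level (log2 concentration), with 95% exact binomial intervals as lines. The isolated curve stays nearly flat from 5.89% at overlap to 7.79% at 100 kb, and the isolated bars reach 22.9% at the highest Rbap46 level.

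The 28 isolated sites that overlapped changed H3K9ac had higher Rbap46 and input levels than the isolated sites without overlap. Their Rbap46 level had a median of 7.37 and ran from 5.81 to 8.11, and their input level a median of 6.10. The 447 without overlap had medians of 6.15 and 5.0. Rbap46 minus input differed little between these sets, with medians of 1.25 and 1.2. The 1621 other sites with overlap had higher levels, with medians of 7.69 and 6.49, and a median difference of 1.18. Of the 28, 4 each lay on chromosomes 5 and 9, 3 each on chromosomes 1, 4, 8 and 12, and 2 on chromosome 6.

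H3K9ac at these places was lower in shHAT1 cells in 28 of 28 cases, against 99.2% of all H3K9ac sites. At 9 of the 28 (32.1%) H3K9ac was lower at an authors' FDR under 0.05, as it was at 36.1% of all H3K9ac sites. The H3K9ac level in shControl cells had a median of 9.43 (quartiles 8.96 and 9.68), close to the 9.41 of the 1640 H3K9ac sites at other Rbap46 sites. It was 8.83 at the 523 H3K9ac sites that overlapped no listed Rbap46 site above input. The median difference of shControl and shHAT1 was 0.70 at isolated sites, with a range of 0.51 to 1.18, which is a 1.63-fold difference. It was 0.75 at the other Rbap46 sites and 0.88 at the 523. A difference of 1 or more was reached at 1 of the 28 (3.57%), against 18.3% of all H3K9ac sites. It was reached at 14.0% of those at other Rbap46 sites and at 32.9% of the 523. At isolated sites the quartiles of the difference were 0.61 and 0.79. They were 0.63 and 0.89 at the other Rbap46 sites and 0.73 and 1.06 at the 523. Only H3K9ac sites that passed the authors' FDR limit of 0.1 are listed, which bears on the size of the difference. The shControl level was also lower at the 523. Differences were not compared at like shControl level, and the 28 sites are few.

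The site with the largest H3K9ac difference of the 28 lay on chromosome 8 from 9912147 to 9912647, with Rbap46 and input levels of 6.82 and 5.40. The overlapping H3K9ac site, from 9911351 to 9912333, had levels of 8.51 in shControl and 7.33 in shHAT1, a difference of 1.18, and the smallest H3K9ac FDR of the 28, 0.0282 in the authors' deposited table. On chromosome 1, the site from 104068564 to 104069064 had Rbap46 and input levels of 6.98 and 5.89 and stood 2.34 Mb and 3.52 Mb from its neighbours. H3K9ac there had levels of 9.07 in shControl and 8.12 in shHAT1 (FDR 0.0314 in the authors' deposited table). This was the most remote of the 28 by distance to the nearest Rbap46 site.

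Other examples showed smaller H3K9ac differences. On chromosome 12 from 82752168 to 82752668, where the Rbap46 site lay wholly inside the H3K9ac site, H3K9ac went from 9.58 in shControl to 8.97 in shHAT1. On chromosome 8 from 107669757 to 107670257 it went from 9.43 to 8.73, on chromosome 4 from 119199711 to 119200211 from 8.98 to 8.19, and on chromosome 6 from 2245557 to 2246057 from 9.19 to 8.44. The H3K9ac FDR of these 4 sites in the authors' deposited table lay between 0.0326 and 0.0374. The highest shControl level of the 28, 10.48, was on chromosome 1 at the Rbap46 site at 62902151 to 62902651, where H3K9ac in shHAT1 was 9.77. This last example was picked with its values known.

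Among the listed sites, the size of the H3K9ac difference had little relation in rank to Rbap46 minus input. Both were seen only at sites that passed the authors' FDR limits. That cuts their range, so a relation over all sites cannot be judged from these values. Over the 28 sites, Spearman's rho between Rbap46 minus input and the H3K9ac difference was -0.09, and over the 1621 other overlapping sites it was -0.07. All sites share the same libraries, and these values are descriptions.

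Changed H3K9ac at isolated Rbap46 sites was isolated too. Of the 28 H3K9ac sites, 27 (96.4%) had no other site of their own table within 250 kb, against 33.2% of the H3K9ac sites at other Rbap46 sites. The median gap to the next H3K9ac site was 748 kb, against 100 kb. As most H3K9ac sites overlap an Rbap46 site, the rule bears on this as well.

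Close to isolated sites but without overlap, 3 further changed H3K9ac sites lay within 1 kb. One stood 39 bp from the isolated site of highest Rbap46 level, on chromosome 1, and had levels of 8.29 in shControl and 7.43 in shHAT1. The others lay 11 bp from the site on chromosome 5 from 82372930 to 82373430, with levels of 8.27 and 7.53, and 40 bp from that on chromosome 12 from 115122091 to 115122591, with levels of 9.04 and 8.29. A further 4 lay between 1.78 and 8.09 kb away, on chromosomes 9, 11, 14 and X, with differences between 0.62 and 0.93. All 7 were lower in shHAT1 cells.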

How the data were processed

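The files used were 2 tables of the authors' own comparisons were used. Each line is a site with the log2 mean concentration of each group and of all libraries, a log2 fold, its p-value and its FDR (false discovery rate), per the file headers. Replicates are averaged in the deposited log2 values. The submitters' processing notes name cutadapt 1.8.1, Bowtie2, SAMtools 1.2, Picard 1.92, MACS2 2.1.0, R 3.3.1, DiffBind and DESeq2 with hg19 for Rbap46 and input. For H3K9ac they name cutadapt, Bowtie2, Picard, SAMtools, MACS2 and DiffBind with hg19. The roles of these tools and the scaling between libraries are not given in the sources used here. Positions are in the coordinates of the tables.

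Rbap46 minus input and shControl minus shHAT1 were computed from the deposited group levels. They match the deposited fold within 0.01. Gaps count the bases between edges. Overlap means at least 1 bp. Gap and overlap routines were tested on simulated positions. Intervals for shares are exact binomial at 95%. These, and the binomial intervals of medians used in judging alternatives, treat sites as independent. The members and lists were chosen with earlier results of these data known. Named sites were the 5 largest gaps, the 5 highest and 3 lowest differences, the 5 highest Rbap46 levels, the 6 H3K9ac overlaps of smallest FDR and the 3 on each side of the gap limit. The planned gene context and sequences were not analysed here, because no genome or annotation of hg19 was used. Software was matplotlib 3.10.9, scipy 1.17.1, pandas 2.3.3 and numpy 2.4.6 in Python 3.11.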

Additional observations from a re-analysis of the deposited data

How the results depend on the processing

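Alternatives were other gap limits, gaps between centres, neighbours above input only, a neighbour on both sides, FDR under 0.01, autosomes only, the smallest width only, levels relative to the chromosome, classes of concentration and other overlap rules. No difference in median Rbap46 level, input level or Rbap46 minus input changed sign. The order of the H3K9ac shares of isolated and other sites, 5.89% and 5.41%, was less stable. It was kept when a longer overlap was required (4.42% and 4.1%). It reversed within 1 kb (6.53% and 6.81%), within 10 kb (7.37% and 9.96%) and at an H3K9ac FDR under 0.05. With a gap over 500 kb the isolated share was 5.19%, below the 5.42% of all sites above input, so the order reversed there too. Of 48 planned values, 38 stayed within the 95% binomial interval of the median or share, or within 1.5 times for counts. These intervals treat sites as independent, which they are not, and served only as a yardstick. The 475 isolated sites became 1671 with a gap over 100 kb, 154 over 500 kb and 302 at FDR under 0.01, by construction. The difference in median Rbap46 level, -0.66, became -0.41, -0.48 and -0.42 in the same order, and that in input level, -0.77, became -0.55 over 100 kb and -0.57 at FDR under 0.01. The difference in Rbap46 minus input, 0.15, became 0.20 over 500 kb. The cause was not tested. Overlap with H3K9ac, 5.89%, fell to 1.89% with only H3K9ac sites at FDR under 0.05, which leaves fewer sites to overlap; that of the other sites was then 1.97%. The 10 classes of concentration, and leaving out the windows of raised input, were added after seeing the data and moved no value beyond its interval, except that the difference in Rbap46 minus input was 0.10 in the classes without the lowest. No paired analysis was possible because every group is given only as 1 mean per site, and leaving out a library was not run for the same reason. Sites that did not pass the authors' FDR limit were not used here, so a site called isolated may have weaker neighbours.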
